A study of Mus musculus with 9 samples.

Results

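AP-1 is a family of transcription factors made of a Fos protein paired with a Jun protein, or of a pair of Jun proteins. The 10 genes described here were taken by name: the Fos family genes Fos, Fosb, Fosl1 and Fosl2, the Jun family genes Jun, Junb and Jund, and the immediate early genes Egr1, Myc and Ier3. They are 10 of 51717 genes to which the transcripts of the deposited tables were summed. Of the 10, 9 had enough counts to be among the 13064 genes tested, and Fosl1 did not. The data come from B16F10 cells, a pigmented mouse melanoma line grown in DMEM with serum and antibiotics, in 3 forms: a Sirpa overexpression line, a Sirpa knockdown line and a line with a non-target control. Sirpa encodes an inhibitory membrane receptor best known from macrophages. Each form is 1 line with 3 libraries that the labels call biological repeats, so a p-value here weighs repeats of one line, not lines made anew. How each line was obtained, whether it is a clone, and whether the control holds the overexpression vector is not in the labels.

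Immediate early genes are transcribed within minutes of a stimulus such as serum or a growth factor, without new protein synthesis. The kinase ERK reaches Fos and Egr1 through ternary complex factors bound beside serum response factor, and JNK and ERK act on Jun. The Fos and Jun proteins bind DNA through basic leucine zippers at the sequence TGACTCA, known as the TRE, or at the related CRE. In melanoma cells this pathway lies downstream of RAS and RAF signalling. In bulk RNA, fewer expressing cells and less RNA per cell cannot be told apart.

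Levels are compared between lines in CPM and between genes in TPM, which corrects for transcript length. CPM are the estimated counts of a gene per 1000000 counts of the tested genes in a library, with library sizes scaled by TMM. The total of estimated counts per library was 16.4 to 22.38 in units of 1000000. Sirpa followed the labels in each of the 9 libraries, with 895 to 914 CPM in the overexpression line, 112 to 118 CPM in the knockdown line and 289 to 303 CPM in the control line. The 7 melanocyte markers looked at were all among the genes tested, and their summed level was 18450 to 18880 CPM with overexpression, 16500 to 17140 CPM with knockdown and 16910 to 17120 CPM in control. They did not move as one. The regulator genes Mitf (log2 fold change −0.18 with overexpression and −0.38 with knockdown) and Sox10 (−0.25 and −0.24) were called lower in both lines, and the pigment enzyme gene Tyrp1 higher in both (0.24 and 0.21). Tyr was called higher with overexpression (0.45), and Dct (−0.19) and Pmel (−0.16) lower with knockdown, while Mlana was not called. Of 5 macrophage and leukocyte markers 0 were tested, and the defining markers Ptprc and Adgre1 had 0 counts in all libraries. The other 3, Csf1r, Cd14 and Itgam, had at most 4 counts in a library. Of 4 endothelial markers, Cdh5 and Kdr had 0 counts, and Pecam1 and Tek had at most 5. Of 4 epithelial markers, Epcam, Krt5 and Krt14 had 0 counts, and Cdh1 had 2 to 34 counts in each library and was not called. Of 5 fibroblast markers 3 were tested, and their summed level was 73.6 to 83.1 CPM with overexpression, 17 to 18.8 CPM with knockdown and 63.7 to 66.7 CPM in control. The sum follows Col1a1, at 63.2 to 70.2 CPM with overexpression, 4.33 to 5.71 CPM with knockdown and 52.9 to 57.7 CPM in control. Col1a2 went the other way with knockdown and was called higher in both lines (log2 fold change 0.67 with overexpression and 0.71 with knockdown). Pdgfra was not called, and Dcn and Lum had at most 6 counts in a library. The part of these marker differences in the results below was not tested.

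Of the 10 genes, 7 have a promoter in the RefSeq table of build GRCm38.p6, which holds the 250 bases before and the 50 bases after an annotated start. The submitters' processing notes name mm39, so the positions below are not those of the authors' build. The 5 printed promoters belong to genes that differed from control in at least 1 line, and they show which known elements lie near the start of genes that were called lower (Fosl2, Jun and Junb in both lines, Fos with knockdown) and of the one called higher (Ier3). Capitals mark matches, on either strand, to 8 motifs. They are the TRE as spelled above, its variant TGACATCA known from the Jun gene, and TGACGT as the core of the CRE. They are also the CCAAT box, the TATA box spelled TATAAA, the E box that Myc binds, spelled CACGTG, and GCGGGGGCG as the site of Egr factors. The serum response element was searched by its CArG box. No 2 of the matches overlap.
Fos promoter, chr12:85473640-85473939, strand +: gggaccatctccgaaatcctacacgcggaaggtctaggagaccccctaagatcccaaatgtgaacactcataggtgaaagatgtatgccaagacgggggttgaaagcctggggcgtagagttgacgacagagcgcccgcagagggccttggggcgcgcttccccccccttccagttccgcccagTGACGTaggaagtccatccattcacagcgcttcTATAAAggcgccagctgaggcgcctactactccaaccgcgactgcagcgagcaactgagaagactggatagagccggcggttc
Fosl2 promoter, chr5:32136222-32136521, strand +: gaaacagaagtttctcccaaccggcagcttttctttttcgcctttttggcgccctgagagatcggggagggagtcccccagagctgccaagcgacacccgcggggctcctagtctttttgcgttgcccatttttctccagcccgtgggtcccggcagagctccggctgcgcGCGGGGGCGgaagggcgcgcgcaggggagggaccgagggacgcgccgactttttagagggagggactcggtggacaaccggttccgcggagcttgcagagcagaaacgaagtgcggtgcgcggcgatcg
Jun promoter, chr4:95052173-95052472, strand -: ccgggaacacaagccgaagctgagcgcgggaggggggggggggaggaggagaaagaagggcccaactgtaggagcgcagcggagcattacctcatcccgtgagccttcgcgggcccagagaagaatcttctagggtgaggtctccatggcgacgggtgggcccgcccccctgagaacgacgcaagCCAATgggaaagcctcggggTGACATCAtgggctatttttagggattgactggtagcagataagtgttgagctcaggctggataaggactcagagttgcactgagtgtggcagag
Junb promoter, chr8:84978699-84978998, strand -: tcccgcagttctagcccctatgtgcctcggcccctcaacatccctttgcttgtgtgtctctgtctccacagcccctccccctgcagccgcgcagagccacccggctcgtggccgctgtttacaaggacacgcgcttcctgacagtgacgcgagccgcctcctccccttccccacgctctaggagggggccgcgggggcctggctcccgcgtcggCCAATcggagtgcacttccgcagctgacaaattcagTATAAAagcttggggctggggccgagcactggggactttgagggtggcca
Ier3 promoter, chr17:35821463-35821762, strand +: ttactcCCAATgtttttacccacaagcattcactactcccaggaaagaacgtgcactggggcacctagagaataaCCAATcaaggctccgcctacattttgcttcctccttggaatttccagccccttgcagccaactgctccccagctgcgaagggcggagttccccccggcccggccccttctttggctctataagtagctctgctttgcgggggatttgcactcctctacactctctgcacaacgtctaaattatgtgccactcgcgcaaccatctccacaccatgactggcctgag

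The Fos promoter holds a CRE core at positions −66 to −61 from the start, the element through which CREB acts on this gene, and a TATA box at −33 to −28. Of 32851 promoters in the table, 7.51% hold the CRE core and 13.6% the TATA box. The Jun promoter holds TGACATCA at −45 to −38, the variant site at which AP-1 is known to act on its own gene, as 3.62% of promoters do. The Egr site stands at −79 to −71 of Fosl2 and, among promoters not printed, at −50 to −42 of Fosb. It occurs in 2.91% of promoters. The CCAAT box, in 37.4% of promoters, was found once in Jun (−65 to −61), once in Junb (−36 to −32) and at 2 places in Ier3 (−244 to −240 and −175 to −171). Junb also has a TATA box match at 1 to 6, after the start. The serum response element, in 1.63% of promoters, the E box, in 7.15%, and the TRE, in 5.2%, were found in none of the 7 windows. That says nothing of sites outside these 300 bases.

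Both perturbed lines had less RNA of most of these genes than control. With overexpression, 5 of the 9 tested genes fell (Fosl2, Jun, Junb, Egr1 and Myc) and 1 rose (Ier3). With knockdown 6 fell (the same 5 and Fos) and Ier3 again rose. A call means an adjusted p under 0.05 (edgeR, quasi-likelihood, Benjamini-Hochberg over all genes tested). Of all 13064 genes, 11.1% were called lower and 13.1% higher with overexpression (24.3% in all), and 17.4% lower and 18% higher with knockdown (35.4%). The libraries of the perturbed and the control line did not overlap for 6 of the 9 genes with overexpression (40.4% of all genes) and for 7 with knockdown (45.8%). The median log2 fold change of the 9 genes was −0.36 with overexpression and −0.44 with knockdown, against medians of −0.0012 and −0.0077 over all genes tested. Both comparisons use the same 3 control libraries, so the shared direction is not independent evidence. Where transcript length was corrected for, with a length offset or on TPM, the calls with overexpression ended for Fosl2 (adjusted p = 0.074 and 0.153), Junb (0.0711 and 0.0984), Myc (0.148 and 0.243) and Ier3 (0.117 and 0.0644). With knockdown they ended for Jun (0.138 and 0.344) and, on TPM, for Fosl2 (0.0673).

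**Figure D1:**
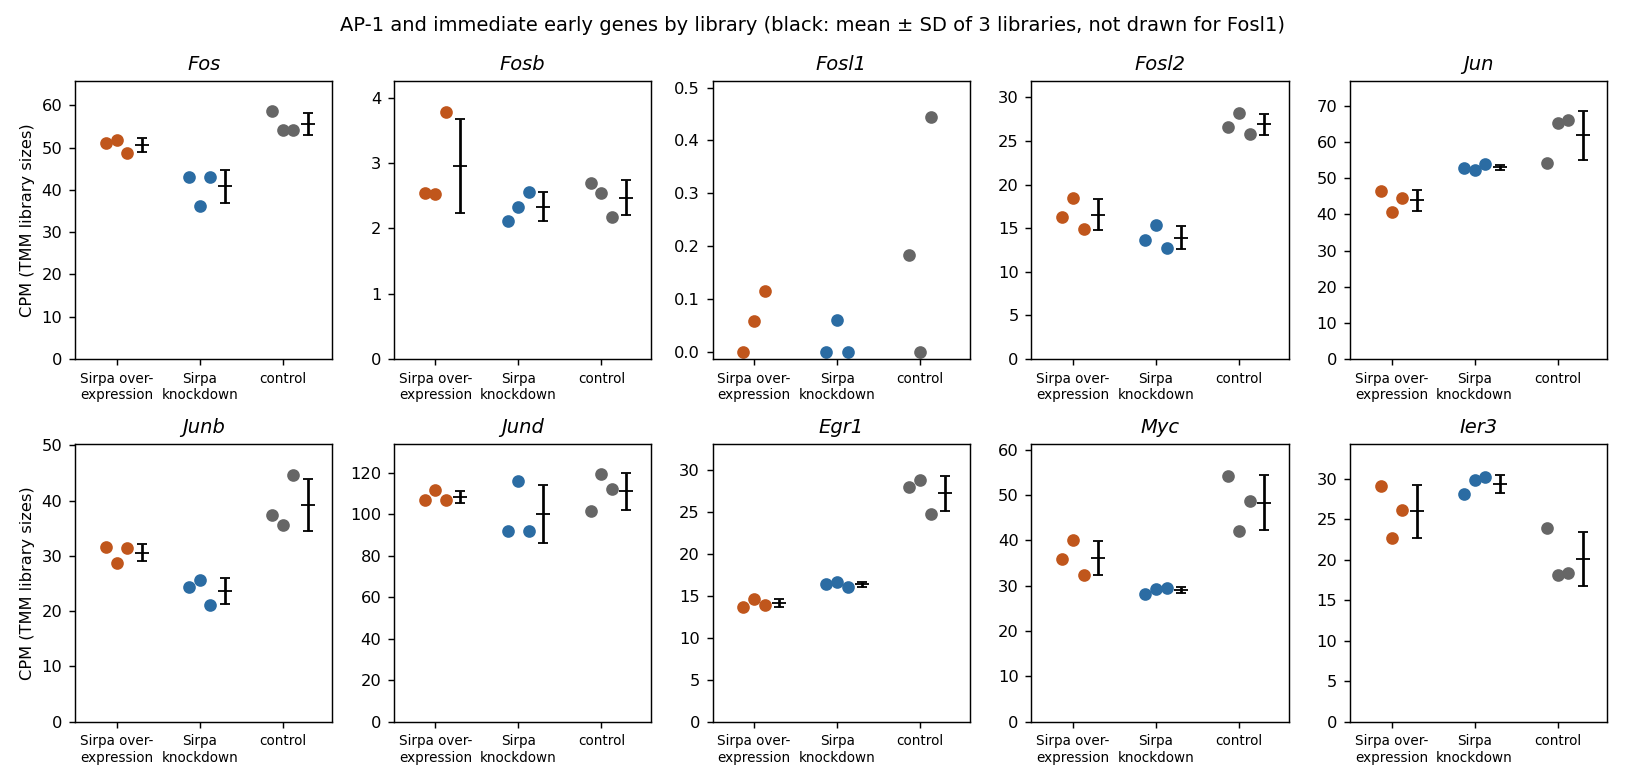
Level of each of the 10 genes in CPM (vertical axis from 0 upward, linear, its own scale in each panel) in the 3 libraries of the overexpression, knockdown and control lines, with the mean and SD in black except for Fosl1. The control libraries of Fosl2 and Egr1 stand well above all others, those of Ier3 lie lower than the knockdown libraries, and Jund overlaps between lines.

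Among the Fos family, Fosl2 (ENSMUSG00000029135, chromosome 5), which encodes the AP-1 subunit FRA2, differed most from control. The libraries held 16.3, 18.5 and 14.9 CPM with overexpression, at 13.6, 15.4 and 12.8 CPM with knockdown and at 26.7, 28.2 and 25.8 CPM in control. All control libraries lay above those of both perturbed lines, which overlapped each other. It was 1.63-fold lower with overexpression (log2 fold change −0.70 ± 0.11, SE; edgeR adjusted p = 0.000207) and 1.93-fold lower with knockdown (−0.95 ± 0.11; edgeR adjusted p = 6.15e-06).

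Fos (ENSMUSG00000021250, chromosome 12), the classic serum-induced gene, separated the perturbed lines. It stood at 51.2, 51.8 and 48.7 CPM with overexpression, at 43.2, 36.3 and 43.1 CPM with knockdown and at 58.6, 54.2 and 54.1 CPM in control. The 3 lines did not overlap, and the knockdown line was the lowest. Fos fell with knockdown (−0.44 ± 0.08, SE; edgeR adjusted p = 0.000307). With overexpression its log2 fold change was −0.14, with a 95% interval of −0.30 to 0.025 and an edgeR adjusted p of 0.221, so a fall was not shown.

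Fosb (ENSMUSG00000003545, chromosome 7), a Fos gene best known from neurons, had 39 to 66 counts per library. It was at 2.55, 2.53 and 3.78 CPM with overexpression, 2.12, 2.32 and 2.55 CPM with knockdown and 2.7, 2.55 and 2.17 CPM in control. The lines overlapped, with overexpression replicate 3 the highest library. The 95% intervals of the log2 fold change were −0.43 to 0.95 with overexpression and −0.78 to 0.61 with knockdown (edgeR adjusted p = 0.627 and 0.875). They are wide at this depth. With knockdown the interval of Fosb overlaps that of Fosl2 (−1.18 to −0.71). With overexpression it ends short of the Fosl2 interval (−0.93 to −0.47).

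Fosl1 (ENSMUSG00000024912, chromosome 19) encodes FRA1, an AP-1 subunit that accumulates under sustained ERK activity and in invasive melanoma. It had 0, 1 and 2 counts in the overexpression libraries, 0, 1 and 0 in the knockdown libraries and 3, 0 and 9 in the control libraries. A library at 0 counts allows a level of up to 0.135 to 0.182 CPM, from 3 counts, which covers counting error only. Control replicate 3 alone held 9 counts, and no fold is given. In addition 54.5% of the 31-base words of Fosl1 also occur in Ccdc85b, a gene on the opposite strand whose exons overlap it. The libraries carry no strand, so the reads of the 2 cannot be told apart there. Ccdc85b was at 7.11 to 11.6 CPM over the 9 libraries.

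Among the Jun family, Junb (ENSMUSG00000052837, chromosome 8) and Jun (ENSMUSG00000052684, chromosome 4) both fell in both lines, but in a different order. Junb, a weaker activator than Jun that can restrain it, stood at 31.6, 28.8 and 31.4 CPM with overexpression, at 24.4, 25.7 and 21.1 CPM with knockdown and at 37.4, 35.6 and 44.6 CPM in control. The 3 lines did not overlap and the knockdown line was the lowest. Junb was 1.28-fold lower with overexpression (−0.36 ± 0.10, SE; edgeR adjusted p = 0.0143) and 1.65-fold lower with knockdown (−0.73 ± 0.10; edgeR adjusted p = 3.44e-05). The call with overexpression ended without overexpression replicate 2 (adjusted p = 0.0623) or control replicate 3 (0.0985). Of its 31-base words 6.51% occur in Prdx2, a peroxiredoxin gene that overlaps it on the opposite strand. Prdx2 was at 222 to 237 CPM with overexpression, 205 to 212 CPM with knockdown and 294 to 301 CPM in control, and its part in the Junb values was not tested.

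Jun, the founding AP-1 gene and a target of JNK signalling, was lowest in the other line. It stood at 46.5, 40.8 and 44.5 CPM with overexpression, at 52.8, 52.3 and 53.9 CPM with knockdown and at 54.1, 65.2 and 66.1 CPM in control. The overexpression libraries lay below all others, and the knockdown libraries ended just under the lowest control library. Jun was 1.41-fold lower with overexpression (−0.49 ± 0.08, SE; edgeR adjusted p = 0.000345) and 1.17-fold lower with knockdown (−0.22 ± 0.08; edgeR adjusted p = 0.0414). The knockdown call is fragile. It was lost in 11 of 18 alternatives, among them without knockdown replicate 1, 2 or 3 (adjusted p = 0.0952, 0.09 and 0.0662), overexpression replicate 1 or 3 (0.0504 and 0.0553) and control replicate 2 or 3 (0.155 and 0.188). The antisense gene Junos, which overlaps Jun, held 0 to 5 counts per library.

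Jund (ENSMUSG00000071076, chromosome 8), the Jun gene that is expressed in resting cells and depends least on stimulation, was not called in either line. It stood at 107, 112 and 107 CPM with overexpression, at 91.8, 116 and 92.2 CPM with knockdown and at 102, 120 and 112 CPM in control. The lines overlapped, and knockdown replicate 2 lay apart from the other knockdown libraries. The 95% intervals of the log2 fold change were −0.21 to 0.13 with overexpression and −0.33 to 0.018 with knockdown (edgeR adjusted p = 0.794 and 0.156). Without knockdown replicate 2 it was called lower with knockdown (−0.27; adjusted p = 0.00526), and also with no filter on low counts (−0.15; 0.049). Of its 31-base words 50.1% occur in the opposite-strand gene Gm11175, which held 81 counts in knockdown replicate 3 and 0 to 11 in the other libraries, against 1517 to 2279 counts of Jund.

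**Figure D2:**
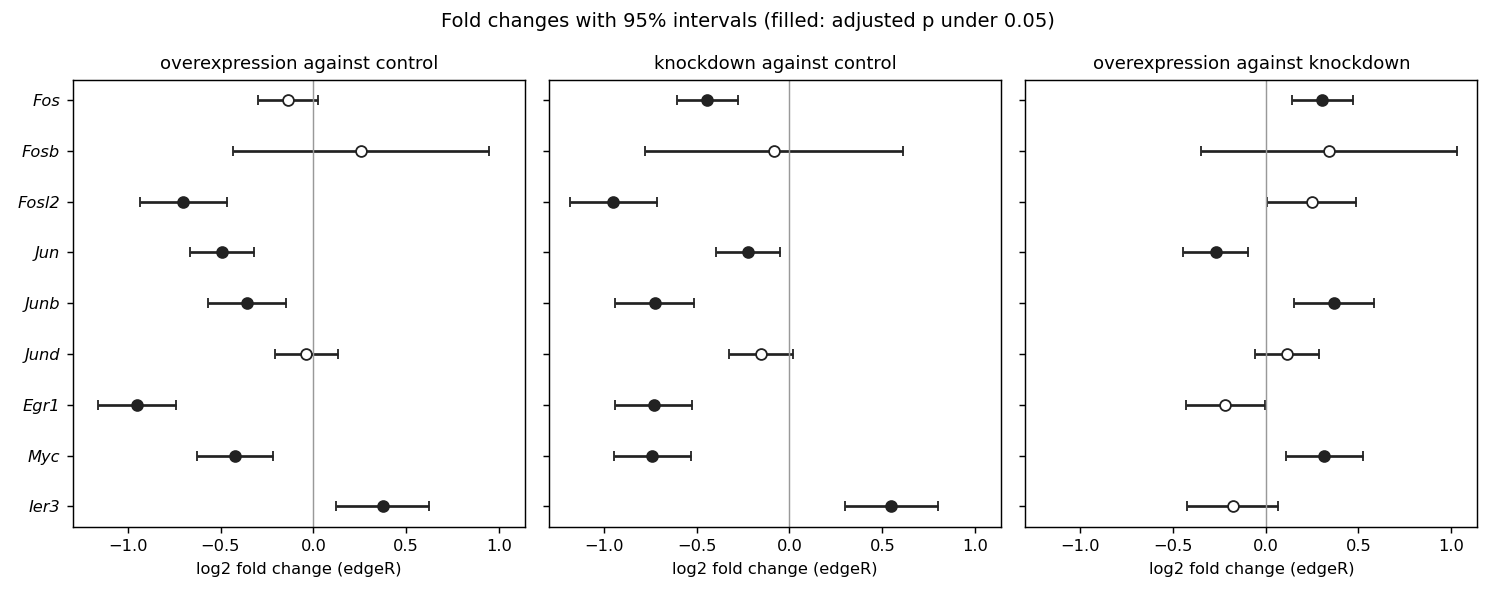
Log2 fold change of the 9 tested genes with its 95% interval (horizontal axis) in overexpression against control, knockdown against control and overexpression against knockdown. Filled points are called at an edgeR adjusted p under 0.05. Egr1 is the farthest from 0 with overexpression and Fosl2 with knockdown, and Ier3 is the one called gene to the right of 0 in both comparisons with control.

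Of the other immediate early genes, Egr1 (ENSMUSG00000038418, chromosome 18) encodes a zinc finger factor that is switched on by ERK through serum response elements. Egr1 stood at 13.7, 14.7 and 14.0 CPM with overexpression, at 16.4, 16.7 and 16.1 CPM with knockdown and at 28.1, 28.9 and 24.8 CPM in control. The lines did not overlap, and the spread within each perturbed line was small. Egr1 was 1.93-fold lower with overexpression (−0.95 ± 0.10, SE; edgeR adjusted p = 3.88e-06) and 1.66-fold lower with knockdown (−0.73 ± 0.10; edgeR adjusted p = 2.51e-05). Both calls held in all 18 alternatives.

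Myc (ENSMUSG00000022346, chromosome 15), the growth-promoting factor whose gene is an early target of mitogens, stood at 35.9, 40.0 and 32.4 CPM with overexpression, at 28.2, 29.3 and 29.5 CPM with knockdown and at 54.2, 42.0 and 48.7 CPM in control. The lines did not overlap and the knockdown line was the lowest. Myc was 1.34-fold lower with overexpression (−0.42 ± 0.10, SE; edgeR adjusted p = 0.00429) and 1.67-fold lower with knockdown (−0.74 ± 0.10; edgeR adjusted p = 2.11e-05).

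Ier3 (ENSMUSG00000003541, chromosome 17), an early gene whose product is an ERK substrate that affects cell survival, moved the other way. It stood at 29.1, 22.7 and 26.2 CPM with overexpression, at 28.2, 29.9 and 30.3 CPM with knockdown and at 23.96, 18.13 and 18.33 CPM in control. The knockdown libraries lay above all control libraries, whereas overexpression replicate 2 lay below control replicate 1. Ier3 was 1.29-fold higher with overexpression (0.37 ± 0.12, SE; edgeR adjusted p = 0.0302) and 1.46-fold higher with knockdown (0.55 ± 0.12; edgeR adjusted p = 0.00167). The call with overexpression ended without overexpression replicate 1 or 3 (adjusted p = 0.153 and 0.0786) or control replicate 2 or 3 (0.121 and 0.136).

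Set directly against each other, the perturbed lines split these genes. With overexpression against knockdown, Fos (0.31 ± 0.08, SE; edgeR adjusted p = 0.00906), Junb (0.37 ± 0.10; 0.0153) and Myc (0.32 ± 0.10; 0.0289) were higher, and Jun was lower (−0.27 ± 0.08; 0.0269). These are 3 of 9 higher and 1 of 9 lower, where 11% of all genes tested were called higher and 11.1% lower (22.1% in all). Libraries of the 2 lines did not overlap for 5 of the 9 (35.9% of all genes). Fosl2 (0.25, 95% interval 0.0088 to 0.49; adjusted p = 0.134), Egr1 (−0.22, −0.43 to −0.0022; 0.144) and Ier3 (−0.18, −0.42 to 0.069; 0.319) did not pass the threshold. The sizes are small, and the calls of Jun, Junb and Myc ended when any of several libraries was left out. Jun was lost without knockdown replicate 1 (adjusted p = 0.0563) or 3 (0.0592) or overexpression replicate 2 (0.117) or 3 (0.0547), Junb without knockdown replicate 3 (0.0826) or overexpression replicate 1 (0.0604) or 3 (0.0562), and Myc without knockdown replicate 1 (0.0966), 2 (0.0525) or 3 (0.0616) or overexpression replicate 1 (0.0709) or 2 (0.142). Fos kept its call whichever library was left out. With the length offset or on TPM none of these 4 calls held (adjusted p = 0.108 and 0.132 for Fos). Without knockdown replicate 2, Jund was called higher with overexpression than with knockdown (0.24; 0.018).

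**Figure D3:**
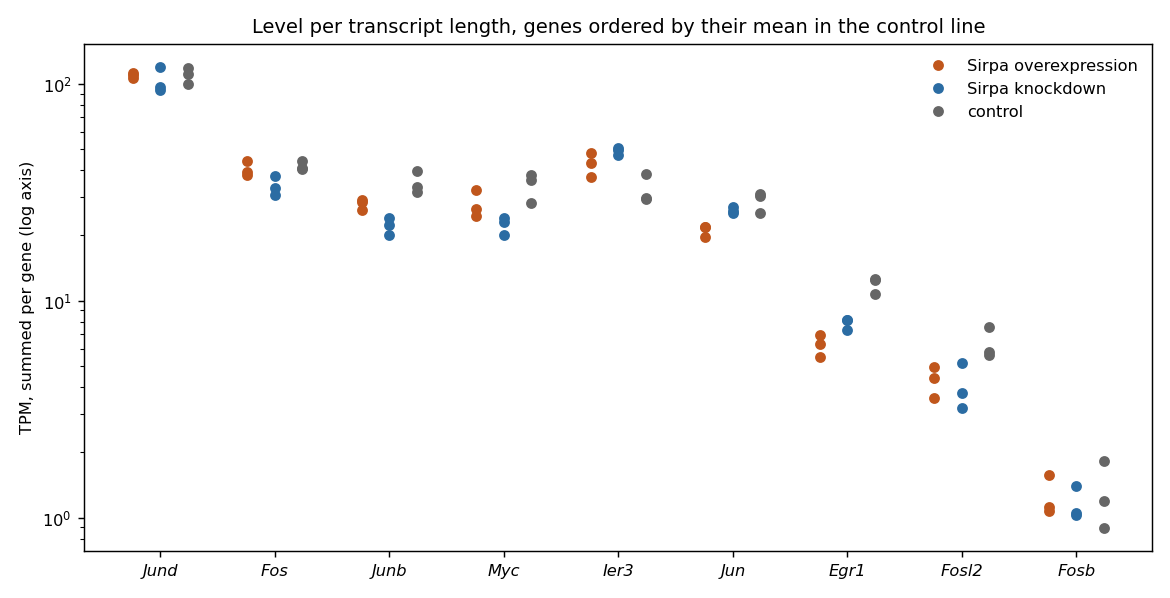
Level in TPM (vertical log axis) of 9 of the genes in each library of the overexpression, knockdown and control lines, ordered by their mean in control, with Fosl1 left out because several libraries are at 0. Jund lies near 100 TPM in every line and Fosb near 1 TPM, while Ier3 ranks below Fos in control and above it with knockdown.

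Per transcript length, Jund had the highest level of these genes in every line. In control, Jund averaged 109 ± 8.89 TPM, Fos 41.8 ± 1.97, Junb 34.9 ± 4.23, Myc 34.0 ± 5.15, Ier3 32.3 ± 5.02 and Jun 28.8 ± 3.02 TPM (SD, n = 3). Egr1 (11.9 ± 1.05 TPM), Fosl2 (6.32 ± 1.07), Fosb (1.3 ± 0.474) and Fosl1 (0.669 ± 0.63) were lower. Neighbours in this order did not overlap, except that Junb overlapped Myc, Myc overlapped Ier3, Ier3 overlapped Jun and Fosb overlapped Fosl1. The order differed in the perturbed lines. Ier3 stood at place 2 with overexpression (42.7 ± 5.25 TPM, overlapping Fos at 40.3 ± 3.31) and with knockdown (49.1 ± 1.87 TPM, above Fos at 33.8 ± 3.57). Jun stood at place 6 with overexpression (21.1 ± 1.36 TPM), as in control, and at place 4 with knockdown (26.1 ± 0.885 TPM), where it stood above Myc and Junb.

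Within each family, the shares of the genes were as follows. Fos made up 87.4% ± 2.2 of the summed Fos family TPM with overexpression, 86.5% ± 3.07 with knockdown and 83.4% ± 1.93 in control, and Fosl2 9.3% ± 1.01, 10.5% ± 3.21 and 12.6% ± 2.13 (SD, n = 3 each). The Fos family summed to 46.1 ± 3.53 TPM with overexpression, 39.0 ± 2.87 with knockdown and 50.1 ± 1.74 in control. Jund made up 69.0% ± 1.77 of the Jun family with overexpression, 67.9% ± 2.33 with knockdown and 63.2% ± 2.22 in control. Junb made up 17.7% ± 0.915, 14.7% ± 1.06 and 20.2% ± 2.25, and Jun 13.3% ± 0.862, 17.4% ± 1.9 and 16.6% ± 0.557 in the overexpression, knockdown and control lines. The Jun share was thus lowest with overexpression and the Junb share lowest with knockdown, without overlap with the next line.

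Within genes, the split of counts between transcripts was steadier where 1 long transcript dominates and unstable elsewhere. Fos-201 took 95.03% to 100% of the Fos counts and Fosl2-201 86.6% to 100% of the Fosl2 counts over the 9 libraries. In TPM shorter transcripts weigh more. In knockdown replicate 2 the retained-intron transcript Fosl2-203 held 2.06 TPM, beside 3.07 TPM of Fosl2-201. The Fosl2 TPM and family shares above include it. Jun, Jund and Ier3 have 1 transcript each in the files. For Egr1 the share of the shorter Egr1-202 ranged from 43.3% to 81.7% with overexpression, 63.6% to 85.9% with knockdown and 64.3% to 72.2% in control. For Fosb the transcript with the most counts changed from library to library of the same line. For Myc, Myc-205 took 49.75% to 78.78% of the counts and Myc-202 0% to 42.57% over the 9 libraries. Gene totals are therefore used here, and no change between transcripts is read from these values.

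Further AP-1 and immediate early genes were looked at as lists, and each gene below is among the called ones with the lowest p in its list. Whether the calls of list genes hold with the length offset or on TPM was not looked at. Of 36 other immediate early genes 31 were tested. With overexpression 5 rose and 6 fell, and with knockdown 5 rose and 11 fell (median log2 fold change −0.026 and −0.11). Over all genes tested, 13.1% rose and 11.1% fell with overexpression and 18% rose and 17.4% fell with knockdown, and the counts of this list and of those below are to be read against these shares. Nr4a3, an orphan nuclear receptor gene induced by many stimuli, averaged 23 ± 2.73 CPM with overexpression, 11.6 ± 0.953 with knockdown and 39.4 ± 3.65 in control (SD, n = 3 each). Its log2 fold changes were −0.77 ± 0.11 and −1.76 ± 0.11 (SE; edgeR adjusted p = 5.52e-05 and 5.72e-09). In TPM the difference was smaller, and Nr4a3 averaged 8 ± 2.8 with overexpression, 5.01 ± 0.459 with knockdown and 10.4 ± 0.306 in control. Overexpression replicate 3, at 11.1 TPM, lay above the control libraries of Nr4a3. Its relative Nr4a1 fell with knockdown (−0.77 ± 0.07) and was at 0.16 ± 0.07 with overexpression (adjusted p = 0.0934). The small GTPase gene Rhob fell in both lines (−0.54 and −0.80). Klf6, a zinc finger factor gene, fell with overexpression (−0.50) and stood at 0.062 with knockdown (adjusted p = 0.491).

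Other early genes were higher. The antiproliferative gene Btg2, also a p53 target, rose in both lines (0.96 ± 0.16 with overexpression and 1.12 ± 0.16 with knockdown, SE; edgeR adjusted p = 0.000426 and 5.13e-05). Ccn1, a matrix protein gene induced by serum, rose by 0.49 with overexpression and 0.17 with knockdown on the log2 scale, and the polo-like kinase gene Plk2 by 0.41 and 0.39. The Ccn1 call with knockdown was near the threshold (edgeR adjusted p = 0.0425). Knockdown replicate 1 (103.3 CPM) lay below control replicate 1 (105.5 CPM). Sgk1, a serum- and glucocorticoid-induced kinase gene, rose with knockdown (0.70) and was at −0.24 with overexpression (adjusted p = 0.246). Phlda1 rose with knockdown (0.20) and was at −0.0087 with overexpression (adjusted p = 0.923). Between the perturbed lines, 12 of the 31 genes were called higher with overexpression and 4 lower. Of all genes tested, 11% were called higher in this comparison and 11.1% lower. The median of the list was 0.22, against 0.0037 over all genes tested.

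**Figure D4:**
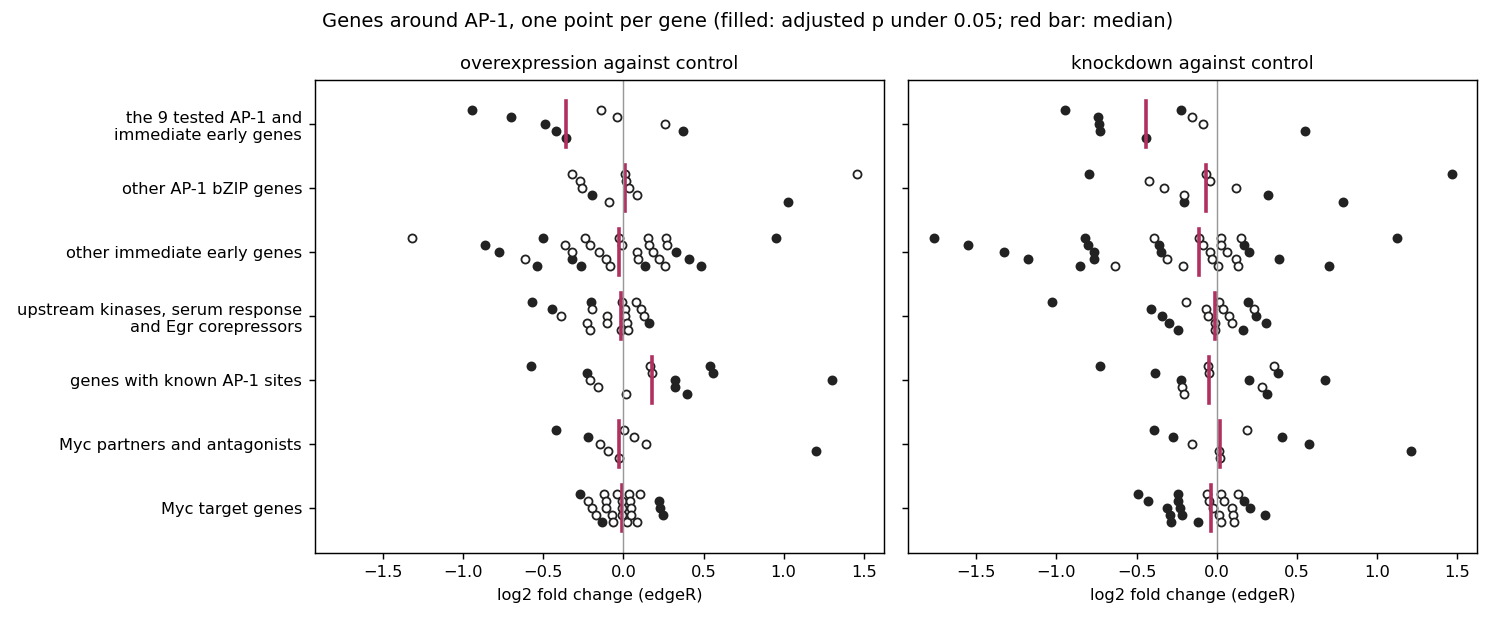
Log2 fold change (horizontal axis) with overexpression and with knockdown against control for the 9 tested AP-1 and immediate early genes and for 6 lists of related genes, 1 point per gene, filled where the edgeR adjusted p is under 0.05, with a red bar at the median. The medians of the 9 genes, −0.36 and −0.44, lie left of 0, and those of the 6 lists lie between −0.11 and 0.18.

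Of 13 other genes for basic leucine zipper proteins of the AP-1 class, 11 were tested. With overexpression 1 rose and 1 fell, and with knockdown 3 rose and 2 fell. Jdp2, which encodes a Jun partner that represses AP-1 sites, averaged 55.9 ± 3.27 CPM with overexpression and 47.2 ± 4.94 CPM with knockdown, against 27.3 ± 1.44 CPM in control (SD, n = 3 each). Its log2 fold changes were 1.03 ± 0.09 and 0.79 ± 0.09 (SE; edgeR adjusted p = 2.93e-07 and 2.76e-06), and neither line overlapped control. Atf7 fell with overexpression (−0.19) and rose with knockdown (0.32) in counts. In TPM the Atf7 libraries of each perturbed line overlapped control. Atf7 averaged 26.5 ± 9.32 TPM with overexpression, 28.3 ± 5.7 with knockdown and 22.1 ± 6.1 in control, so no fall was seen there. Batf, at 1.5, 1.51 and 0.549 CPM on average in the overexpression, knockdown and control lines, was called higher with knockdown (1.47 ± 0.55; adjusted p = 0.0474) and was at 1.46 with overexpression (adjusted p = 0.0641). The small Maf genes Mafg (−0.20) and Maff (−0.80) fell with knockdown and were at 0.036 and −0.27 with overexpression (adjusted p = 0.721 and 0.495).

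Of 20 genes for upstream kinases, serum response factors and Egr corepressors 19 were tested. With overexpression 1 rose and 3 fell, and with knockdown 4 rose and 5 fell. Elk3, a ternary complex factor gene, averaged 45 ± 4 CPM with overexpression and 32.9 ± 3.25 CPM with knockdown, against 66.8 ± 1.46 CPM in control (SD, n = 3 each). Its log2 fold changes were −0.57 ± 0.08 and −1.02 ± 0.08 (SE; edgeR adjusted p = 9.13e-05 and 1.17e-07). Mapk3, the gene of ERK1, fell in both (−0.20 and −0.30), and so did Creb1 (−0.45 and −0.24), whose product binds the CRE. In TPM the Creb1 libraries of the perturbed lines overlapped control. Creb1 averaged 25 ± 2.2 TPM with overexpression, 25 ± 2.15 with knockdown and 27.5 ± 5.43 in control. Elk1 fell with knockdown (−0.34) and was at −0.10 with overexpression (adjusted p = 0.41). The p38 gene Mapk14 rose in both lines (0.16 and 0.19). The ribosomal S6 kinase gene Rps6ka3 (0.31) and the Egr corepressor gene Nab1 (0.25) rose with knockdown and were at 0.076 and 0.11 with overexpression (adjusted p = 0.33 and 0.228).

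Of 18 genes with known AP-1 sites, 13 were tested. With overexpression 6 rose and 2 fell, and with knockdown 4 rose and 3 fell, with medians of 0.18 and −0.046. Timp1, a metalloprotease inhibitor gene, fell in both lines (−0.58 and −0.73), as did the hyaluronan receptor gene Cd44 (−0.23 and −0.22). Hmga1, a chromatin protein gene, fell with knockdown (−0.39) and was at 0.014 with overexpression (adjusted p = 0.878). The heme oxygenase gene Hmox1 (0.54 and 0.31) and the metallothionein gene Mt2 (0.33 and 0.68) rose in both. Mt1 rose with knockdown (0.39) and was at 0.16 with overexpression (adjusted p = 0.0828). The cyclin gene Ccnd1 rose with overexpression (0.40) and was at −0.054 with knockdown (adjusted p = 0.362). The growth factor gene Tgfb1 rose with overexpression (0.56) and was at 0.28 with knockdown (adjusted p = 0.113).

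Of 11 genes for partners and antagonists of Myc 9 were tested. With overexpression 1 rose and 2 fell, and with knockdown 3 rose and 2 fell. Mxd1, whose product competes with Myc for Max, averaged 18.3 ± 1.96 CPM with overexpression and 18.4 ± 1.93 CPM with knockdown, against 7.96 ± 1.6 CPM in control (SD, n = 3 each). Its log2 fold changes were 1.21 ± 0.15 and 1.21 ± 0.15 (SE; edgeR adjusted p = 2.47e-05 and 1.25e-05). Mxd4 fell with overexpression (−0.22) and rose with knockdown (0.57), and Mxi1 fell in both (−0.42 and −0.28). With knockdown Mga rose (0.41) and Mlxip fell (−0.39), and with overexpression they were at −0.10 and −0.15 (adjusted p = 0.474 and 0.15).

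Of 24 Myc target genes, all tested, 3 rose and 2 fell with overexpression, and 3 rose and 10 fell with knockdown. The median log2 fold change was −0.0094 with overexpression and −0.036 with knockdown. The translation factor gene Eif4a1 fell in both lines (−0.27 and −0.43). The chaperonin genes Hspd1 (−0.22) and Hspe1 (−0.23) fell with knockdown and were at −0.0073 and 0.046 with overexpression (adjusted p = 0.928 and 0.541). Wdr43, a ribosome biogenesis gene, rose in both (0.22 and 0.21). The nucleolin gene Ncl (0.17) and the growth-related gene Pa2g4 (0.30) rose with knockdown and were at 0.11 and 0.086 with overexpression (adjusted p = 0.112 and 0.169). The polyamine synthesis gene Odc1 (0.25) and the nucleolar gene Nop58 (0.23) rose with overexpression and were at 0.094 and 0.11 with knockdown (adjusted p = 0.0939 and 0.0725). The lactate dehydrogenase gene Ldha fell with overexpression (−0.13) and was at 0.025 with knockdown (adjusted p = 0.586).

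Fosl2 had the largest range of line means of the 9 tested genes, 0.95 on the log2 CPM scale, followed by Egr1 with 0.94. Among 9788 genes with a mean of at least 5 CPM, those with the pattern most like Fosl2 over the 9 libraries were Rps3a1 (Pearson r = 0.986), Sfpq (0.983), Mex3d (0.981), Adgra2 (0.98) and Serpinh1 (0.979). These r values describe libraries of 3 lines, whose differences they mostly reflect. Mex3d, like Fosl2 in size, averaged 16.6 CPM with overexpression, 15.7 CPM with knockdown and 26.4 CPM in control.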

How the data were processed

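RNA of 9 libraries, 3 for each of 3 lines, was read as non-directional paired reads of 150 bases, per the labels' protocols. The authors deposited 1 table per library with an estimated count and a TPM per transcript. Salmon 1.4.0, MultiQC 1.11, DESeq2 1.34.0 and the build mm39 are named in the submitters' processing notes; the annotation release is not given in the sources used here. Per the file headers, the tables also hold transcript lengths and effective lengths in bases, which made the length offset named below.

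The 140789 transcripts were matched to genes by identifier with GENCODE M21 (GRCm38), and 137161 matched. The rest, with 0.554% to 0.654% of each library's counts, were dropped. Estimated counts were summed per gene and rounded. The main test was edgeR 4.0.16 in R 4.3.3 (filterByExpr, TMM, quasi-likelihood), fitted by line over the 9 libraries together and tested on simulated data first. SEs were derived from the F statistics. Alternatives were DESeq2 1.42.0, its size factors, voom and log2(TPM + 1) in limma 3.58.1, a length offset, other filters on low counts, only the 2 lines compared, a replicate block and each library left out. Replicates of a line differed by more than sampling noise (chi-square per degree of freedom 4.77 to 10.6). Genes named from the lists are up to 3 per direction with the lowest p in each comparison with control. The 10 genes, the lists and the rules were chosen with earlier results of these data known. Intervals and floors at 0 counts cover counting error or the spread between libraries, not that between lines.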

Additional observations from a re-analysis of the deposited data

How the results depend on the processing

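Of 162 values for single genes in each comparison (9 genes, 18 alternatives), 144 with overexpression against control, 148 with knockdown against control and 141 between the perturbed lines kept their direction and their side of the threshold. The settings that correct for transcript length moved most. With the length offset and with limma on log2(TPM + 1), all genes called were 1577 and 1461 with overexpression (3172 as reported), 2794 and 2729 with knockdown (4619) and 1423 and 1162 between the perturbed lines (2887). Under each of these 2 settings 2 of the 10 genes were lower and 0 higher with overexpression, and 0 were called between the perturbed lines, in either direction, whereas knockdown kept 5 and 4 lower and 1 higher. Fosb with overexpression turned to −0.089 and −0.018, and Jund to 0.0034 on the TPM scale. The cause was not tested.

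With no filter on low counts 7 genes were lower with knockdown, Jund the added one. All genes called with knockdown were then 4823 of 21445 tested (4619 of 13064 as reported). Leaving out 1 library at a time, the genes called lower with overexpression numbered 4 to 5 and higher 0 to 1, lower with knockdown 5 to 6 and higher 1, and between the perturbed lines higher 1 to 3 and lower 0 to 1. All genes called ranged from 2440 to 3297 with overexpression, from 3885 to 4555 with knockdown and from 2241 to 2867 between the perturbed lines. Jund with overexpression ranged from −0.094 to 0.020, the last without control replicate 2. With the replicate block, 5 genes were lower with knockdown (Jun at an adjusted p of 0.0595) and all genes called were 2957 with overexpression, 4423 with knockdown and 2712 between the perturbed lines. The block changed no other call of the 9 genes. Same-numbered libraries did not deviate together (correlations −0.0927 to 0.127), so the numbers were not used as pairs. Depth limits Fosl1 and Fosb.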
